A study of Mus musculus with 9 samples.

Results

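The genes described here are 46 genes of DNA replication and nucleotide synthesis, chosen by name from the 55322 genes of the deposited table for what their products do. The rule used no measured value, but earlier results of these data were known when it was made. Each name matched 1 row. Their levels were followed in RNA sequencing of 9 libraries, 3 per group. CD11b+ B cells and CD11b- B cells were both sorted from the bone marrow (BM) of WT C57BL/6 mice 48 h after an intraperitoneal injection of LPS, a bacterial cell wall component, at 5 mg/kg. Before the sort, BM cells carrying CD3, CD4, CD8, Gr-1, NK1.1 or TER119 were depleted. Peritoneal macrophages (PMs, CD11b+F4/80+) came from naive mice that received no LPS, so a difference between B cells and PMs cannot be told apart from a difference in tissue, treatment or sort. All 3 groups were labelled wild type, and ages were not given in the sources used here. Each library is a bulk sample. Nothing in the labels says that the libraries of a group came from separate mice, so the p-values below measure the spread between these libraries.

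A cell copies its genome once per division. The origin recognition complex, Cdc6 and Cdt1 load the MCM2-7 helicase onto origins before S phase, and Cdc45, the GINS complex and Mcm10 then turn it into a moving helicase. Primase and the polymerases make DNA on the unwound strands, PCNA and its loader hold the polymerases on, RPA covers single strands, Fen1 and Lig1 join Okazaki fragments, and ribonucleotide reductase, thymidylate synthase, thymidine kinase and dUTPase supply the deoxynucleotides. E2F transcription factors are known to drive many of these genes at the entry into S phase, large pre-B cells in the BM are known as a strongly dividing B lineage stage, and resting mature B cells and resident tissue macrophages divide little.

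The E2F site is the sequence element the members are best known to share, so promoter stretches are shown for 4 members whose windows hold it and for 2 nucleotide supply members whose windows do not. RefSeq promoter windows (build GRCm38.p6, 250 bases before to 50 after a start) were found for 38 of the 46 members. Each stretch below runs 5′ to 3′ on the strand of its gene, from 170 bases before the start to 20 bases after it. Capitals mark matches on either strand to an E2F site (TTTGGCGC, TTTCCCGC, TTTGCCGC or TTTCGCGC), a CCAAT box (CCAAT) or the cell cycle homology element (TTTGAA). No motif contains another, but sites on opposite strands can overlap.
Cdc6, chr11:98907981-98908170, plus strand: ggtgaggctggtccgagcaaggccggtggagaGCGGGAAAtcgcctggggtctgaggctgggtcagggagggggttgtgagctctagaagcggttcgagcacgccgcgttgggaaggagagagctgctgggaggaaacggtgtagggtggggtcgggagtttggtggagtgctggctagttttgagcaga
Mcm5, chr8:75109339-75109528, plus strand: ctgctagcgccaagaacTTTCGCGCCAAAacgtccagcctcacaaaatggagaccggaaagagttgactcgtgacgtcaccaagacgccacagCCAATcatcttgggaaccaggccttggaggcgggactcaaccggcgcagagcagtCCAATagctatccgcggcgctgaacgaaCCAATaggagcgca
Mcm6, chr1:128359686-128359875, minus strand: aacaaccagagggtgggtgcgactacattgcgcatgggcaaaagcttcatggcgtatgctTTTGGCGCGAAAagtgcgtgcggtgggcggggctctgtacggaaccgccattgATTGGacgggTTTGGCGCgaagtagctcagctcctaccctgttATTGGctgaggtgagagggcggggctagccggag
Rfc3, chr5:151651189-151651378, minus strand: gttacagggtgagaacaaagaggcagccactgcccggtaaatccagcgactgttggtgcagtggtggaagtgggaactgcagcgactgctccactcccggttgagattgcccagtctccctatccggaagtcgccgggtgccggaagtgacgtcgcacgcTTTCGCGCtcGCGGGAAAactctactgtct
Rrm2, chr12:24708084-24708273, plus strand: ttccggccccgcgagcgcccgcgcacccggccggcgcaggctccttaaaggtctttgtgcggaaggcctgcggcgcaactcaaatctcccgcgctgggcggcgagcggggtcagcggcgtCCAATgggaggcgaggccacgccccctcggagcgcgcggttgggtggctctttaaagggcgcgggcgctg
Tk1, chr11:117825995-117826184, minus strand: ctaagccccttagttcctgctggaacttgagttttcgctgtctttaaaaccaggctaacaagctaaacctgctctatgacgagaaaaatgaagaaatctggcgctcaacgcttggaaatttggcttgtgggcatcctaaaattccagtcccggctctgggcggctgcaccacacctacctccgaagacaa

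An E2F site in these letters lay in a window of 15 of the 38 members (39.5%), against 2.6% of all 27025 genes in the promoter table. The 15 were *Orc1*, *Cdc6* and *Cdt1* of origin loading, *Mcm3*, *Mcm5*, *Mcm6* and *Mcm7* of the helicase, *Gins3*, *Pola1*, *Pold1*, *Pole2*, *Rfc3*, *Lig1*, *Uhrf1* and *Clspn*. None of the 5 nucleotide supply genes and none of the 3 RPA genes had one, which says only that these letters are not in these windows. The 21 sites started between 185 bases before and 39 bases after the start. A CCAAT box lay in a window of 24 members (63.2%, against 41.1% of all genes) and TTTGAA in a window of 5 (13.2%, against 20.2%). These shares are a description, with no test.

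The libraries held 18014658 to 35251215 reads on genes. B cell genes marked both B cell groups as labelled, with 12 B cell markers summing to 7733 to 8270 FPKM in CD11b- libraries, 6133 to 7118 in CD11b+ libraries and 66.0 to 146 in PMs. Between the B cell groups 11 of the 12 were fitted lower in CD11b+ B cells, and for 6 the libraries did not overlap, against 6.32% of all genes tested (1 at an unadjusted p under 0.05, 0 called). *Cd79a*, a signaling chain of the B cell receptor, was at 1848 to 2580 FPKM (fragments per kilobase of exon, scaled to the reads on genes) in the B cell libraries and at 21.6 to 35.4 in PMs, and *Itgam*, which encodes CD11b, was at 0.251 to 0.869 FPKM in CD11b- libraries, 1.31 to 1.92 in CD11b+ libraries and 251 to 358 in PMs. The B cell libraries numbered 3 stood apart from the others. The summed FPKM of 12 B cell precursor markers (*Rag1*, *Igll1*, *Dntt* and others) was 204 in CD11b- replicate 3 and 56.1 in CD11b+ replicate 3, but 3.06 to 6.51 in the other 4 B cell libraries. *Dntt*, which defines early precursors, was at 15.9 and 2.35 FPKM in these libraries and at 0 in CD11b- replicates 1 and 2. CD11b+ replicates 1 and 2 carried the most of the 12 granulocyte precursor markers (282 and 622, with 46.9 in CD11b+ replicate 3 and 3.01 to 5.93 in CD11b- libraries), and the 10 erythroid markers were at 39.5 to 50.1 in CD11b+ and 2.22 to 25.7 in CD11b- libraries. The 12 monocyte and macrophage markers summed to 122 to 324 FPKM in CD11b+ and 41.8 to 59.8 in CD11b- libraries, with 10 higher at an unadjusted p under 0.05 and 0 called (limma), where 4.65% of all genes tested were higher at that p and 0.0689% were called. The granulocyte precursor list had 8 of 12 and the erythroid list 4 of 9 tested genes higher at that p, with 0 called. The 10 plasma cell markers summed to 411 to 848 and 154 to 232 FPKM, with 7 higher at that p and 1 called, *Creld2*. The gate of these sorts was not given in the sources used here beyond CD11b. For cytology the study took both populations from the B220hi IgM+ mature fraction, a gate that would leave out IgM- precursors. The paper reports *Csf1r*, *Adgre1*, *Lyz2*, *Ccr2* and *Ngp*, which are in these lists, as upregulated in the CD11b+ B cells. Such transcripts from B cells and from other cells in a sort cannot be told apart here. The part of precursors or of other cells in the member values was not tested. In bulk RNA, fewer cells in S phase and less of a transcript per cell cannot be told apart.

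As a whole, the 46 genes were low in PMs and several times higher in B cells of either sort. They took 0.0703, 0.0658 and 0.0730% of the reads on genes in PM replicates 1, 2 and 3. In CD11b- B cells they took 0.545, 0.447 and 0.300%, and in CD11b+ B cells 0.571, 0.576 and 0.310%. The B cell groups overlapped, and the lowest library of each was replicate 3. The median member was at 1.91 to 2.23 FPKM in PMs, 13.5 to 24.6 in CD11b- and 15.5 to 24.3 in CD11b+ libraries. FPKM here divides by the length of all exon bases of a gene, not by that of a single transcript. Ranks between genes are therefore approximate. In PMs the highest mean was that of *Pcna* (29.6 ± 3.54, SD, n = 3), followed by *Gins4* (23.2 ± 6.31), whose range overlaps it. In CD11b- B cells it was *Pold1* (83.0 ± 2.45), ahead of *Pcna* (65.4 ± 18.8) with no overlap between their libraries, and in CD11b+ B cells it was *Rrm2* (93.8 ± 49.6), which overlaps *Pcna* (85.5 ± 17.9). *Orc1*, *Clspn* and *Fen1* were the lowest members in both B cell groups, with means of 2.30 to 3.60 FPKM. The level of *Fen1* is uncertain, because 78.8% of its exon bases are shared with *Gm10143* on the opposite strand and the use of strand in counting was not given.

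**Figure D1:**
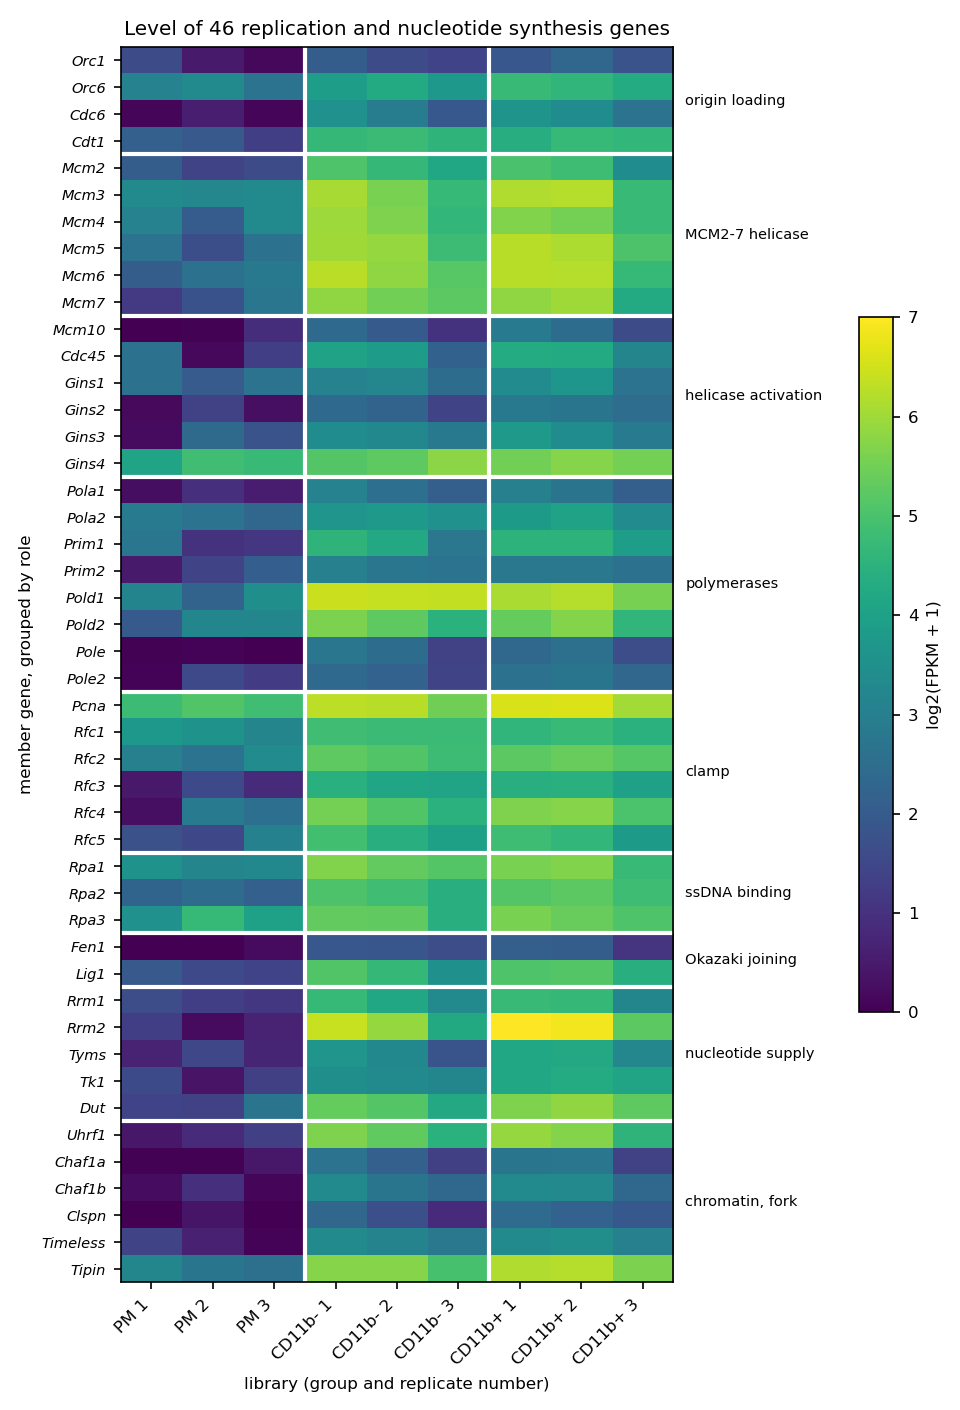
Level of each of the 46 members (rows, grouped by role) in each of the 9 libraries (columns, by group and replicate number), with color giving log2(FPKM + 1). The B cell columns are brighter than the PM columns for nearly every gene, and the column of replicate 3 is the darkest of its B cell group for 45 members in CD11b- and 44 in CD11b+ B cells.

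The first comparison asked how CD11b+ B cells differ from PMs. Replication and nucleotide synthesis genes were higher in CD11b+ B cells across all roles. Of the 46 members, 44 were called higher and 0 lower (limma on log2(FPKM + 1), Benjamini-Hochberg adjusted over all 22102 genes tested, threshold 0.05), where 21.5% of all genes tested were called higher and 8.78% lower. For all 46 the 3 CD11b+ libraries lay above the 3 PM libraries, as they did for 34.3% of all genes tested. The median difference of the members was 2.46 on the log2(FPKM + 1) scale, from 0.82 to 5.65, against a median of 0.25 over all genes tested. This scale understates the change of low genes, and all ranks of differences below are ranks on it. By ratio of mean FPKM the order differs: *Rrm2* (128-fold), *Pole* (103-fold), *Fen1* (53.4-fold) and *Uhrf1* (48.8-fold) come first for CD11b+ B cells. For CD11b- B cells the order is *Pole* (107-fold), *Rrm2* (72.9-fold), *Fen1* (53.0-fold) and *Uhrf1* (40.2-fold), where *Pole* and *Fen1* rest on 30 and 7 reads over the PM libraries. By the exact two-sided permutation test each member reached p = 0.1, the smallest that 3 libraries against 3 allow. Scaling mattered for the background: 71.0% of the calls over all genes were higher, but 53.3% with median-ratio scaling and 50.1% with quantile normalization. Set against the median of all genes, the members' median stood 2.21 above it, and 1.88 and 2.02 with these scalings.

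The second comparison set CD11b- B cells against the same PM libraries, so it is not independent of the first. Of the 46 members 41 were called higher and 0 lower, against 25.8% and 11.0% of all 20985 genes tested, and for 41 members the libraries did not overlap, against 36.1% of all genes tested. The median difference was 2.20, from 0.51 to 4.79, with 0.24 over all genes. Of all calls, 70.1% were higher, and 52.5% and 52.4% with median-ratio scaling and quantile normalization, under which the members' median stood 1.73 and 1.77 above that of all genes (1.96 without). Under both scalings 45 of the 46 members lay above the median of all genes. *Gins1*, *Orc1*, *Pole2*, *Cdc45* and *Rpa3* did not pass.

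On the log2(FPKM + 1) scale, nucleotide supply held the largest single difference from PMs, that of *Rrm2*. *Rrm2* (ENSMUSG00000020649), the regulated small subunit of ribonucleotide reductase, was at 1.46, 0.148 and 0.590 FPKM in PM replicates 1 to 3, at 83.9, 58.5 and 18.0 in CD11b- and at 127, 117 and 36.8 in CD11b+ libraries. Every B cell library was above every PM library, with differences of 5.65 ± 0.50 (SE, adjusted p = 0.000106, limma) for CD11b+ and 4.79 ± 0.56 (adjusted p = 0.000540) for CD11b- B cells. Its large subunit *Rrm1* was at 1.21 to 2.16 FPKM in PMs, 9.02 to 24.7 in CD11b- and 8.32 to 25.2 in CD11b+ libraries, the smallest difference of this role for CD11b+ B cells (2.83 ± 0.42, adjusted p = 0.00173). *Dut*, the dUTPase that also feeds thymidylate synthesis, was at 1.62 to 5.49 FPKM in PMs and at 17.8 or more in every B cell library. All 5 genes of the role were called higher in both B cell groups, against 21.5% (CD11b+) and 25.8% (CD11b-) of all genes tested.

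All the helicase genes were higher than in PMs, with 6 of 6 *Mcm* genes called higher in both comparisons (21.5% and 25.8% of all genes tested). *Mcm5* was at 5.31, 2.22 and 5.17 FPKM in PMs, at 63.5, 58.0 and 26.7 in CD11b- and at 75.7, 69.1 and 32.1 in CD11b+ libraries. Its difference, 3.49 ± 0.39 for CD11b+ B cells (adjusted p = 0.000405, limma), was the largest of the 6 there, and *Mcm7* had the largest for CD11b- B cells (3.64 ± 0.39, adjusted p = 0.000354). *Mcm3* had the smallest in both, 2.41 ± 0.38 and 2.17 ± 0.33, and of the 6 it had the highest mean level in PMs (8.79 ± 0.346 FPKM, n = 3).

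Origin loading and helicase activation were less even. *Cdc6*, the loader that recruits Cdt1 and the helicase to the origin, was at 0.0637, 0.491 and 0.0853 FPKM in PMs, 10.7, 6.78 and 2.84 in CD11b- and 11.3, 9.64 and 5.38 in CD11b+ libraries, a difference of 2.97 ± 0.36 for CD11b+ B cells (adjusted p = 0.000559, limma). *Cdt1*, its partner, led this role for CD11b- B cells on this scale (2.86 ± 0.26, adjusted p = 0.000146), although *Cdc6* did by ratio of means (31.8-fold against 9.42-fold). *Orc1*, the origin recognition subunit whose level varies with the cell cycle, was at 2.01, 0.423 and 0.0997 FPKM in PMs, so that PM replicate 1 lay inside the range of the CD11b- libraries (1.64 to 3.16), and it passed in neither comparison (adjusted p = 0.0599 and 0.121). *Gins1* missed the threshold in both (0.82 ± 0.33, adjusted p = 0.103, and 0.51 ± 0.30, adjusted p = 0.226). *Cdc45*, the helicase partner of GINS, was at 5.08 FPKM in PM replicate 1 and at 0.117 and 1.46 in the other PM libraries. It passed for CD11b+ B cells (2.57 ± 0.61, adjusted p = 0.0146) and missed for CD11b- B cells (1.99 ± 0.70, adjusted p = 0.0613).

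Among polymerases, *Pold1*, the catalytic subunit of polymerase delta, had the largest difference from PMs on the log2(FPKM + 1) scale. It was at 7.997, 3.69 and 10.2 FPKM in PMs, against 46.4 to 74.0 in CD11b+ libraries (3.01 ± 0.34, adjusted p = 0.000444, limma) and 80.8 to 85.6 in CD11b- libraries (3.43 ± 0.31, adjusted p = 0.000143). *Pola2*, the accessory subunit of polymerase alpha, had the smallest, 1.11 ± 0.27 and 1.03 ± 0.22, and was called in both. *Pole*, the catalytic subunit of polymerase epsilon, rested on 30 reads in all over the 3 PM libraries and was at 1.59 to 5.67 FPKM in B cells. Of the clamp and its loader, 6 of 6 were called higher in both, where 21.5% and 25.8% of all genes tested were. *Rfc4* led for CD11b+ B cells (3.55 ± 0.63, adjusted p = 0.00397) and *Rfc3* for CD11b- B cells (3.26 ± 0.31, adjusted p = 0.000194), while *Pcna*, the clamp itself, was already at 26.9 to 33.6 FPKM in PMs and at 43.7 to 97.8 in B cells.

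The other roles followed. *Rpa2*, the middle subunit of RPA, had the smallest adjusted p of any member for CD11b+ B cells (4.94e-05, limma, difference 2.77 ± 0.21). *Rpa3*, the small subunit, had the smallest difference of the role in both comparisons (1.27 ± 0.31 and 0.93 ± 0.36), and PM replicate 2 at 25.0 FPKM lay above CD11b- replicate 3 at 20.4. *Lig1*, the replicative ligase, was at 1.68 to 2.85 FPKM in PMs and at 10.4 to 34.1 in B cells. *Fen1* was at 0, 0 and 0.143 FPKM in PMs and at 1.08 to 3.39 in B cells, with 78.8% of its exon bases shared with *Gm10143* on the opposite strand. *Uhrf1*, which carries DNA methylation through replication, had the second largest difference of all members on the log2(FPKM + 1) scale, 4.50 ± 0.40 (adjusted p = 0.000107) for CD11b+ and 4.26 ± 0.36 (adjusted p = 0.000103) for CD11b- B cells. It was at 0.378, 0.820 and 1.51 FPKM in PMs, 49.6, 38.0 and 21.4 in CD11b- and 58.0, 51.6 and 22.5 in CD11b+ libraries. *Clspn*, the checkpoint mediator claspin, had the smallest difference of its role in both on this scale (2.05 ± 0.30 and 1.49 ± 0.39), but its ratios of means (33.6-fold and 21.98-fold) were above those of *Tipin* (10.2-fold and 7.08-fold).

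**Figure D2:**
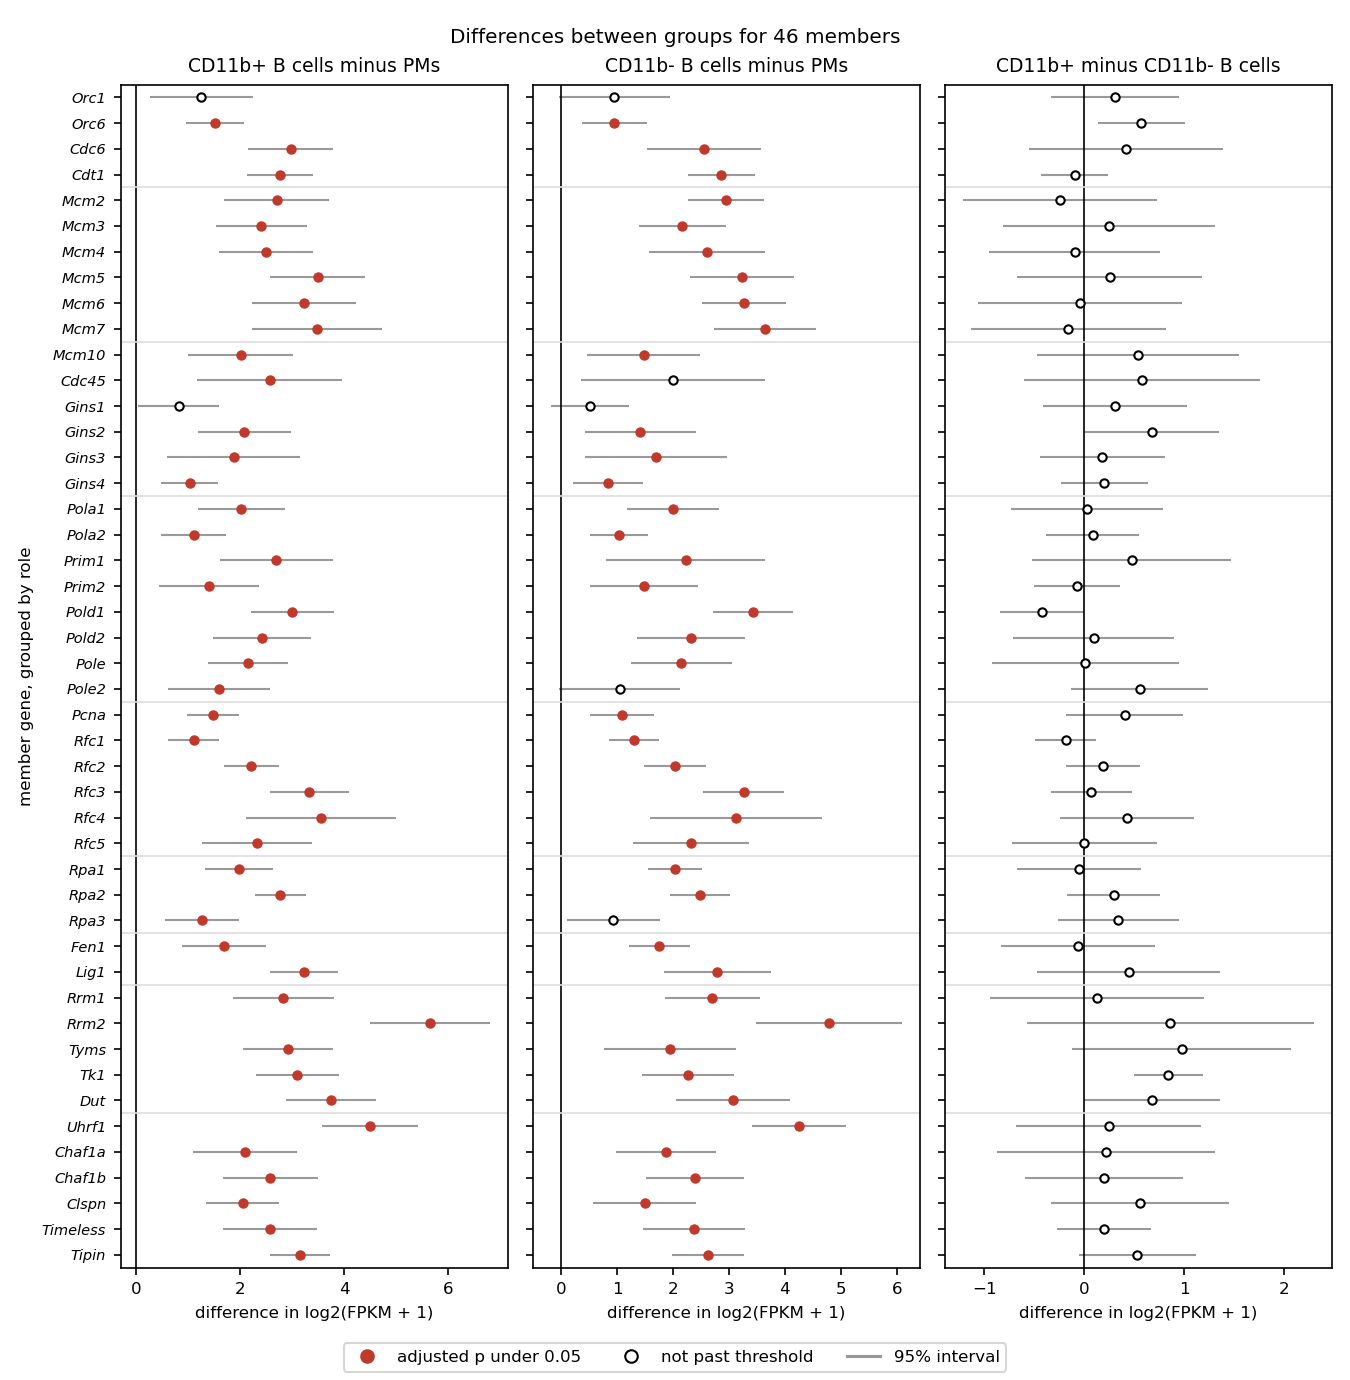
Difference between groups in log2(FPKM + 1) for each of the 46 members (rows, grouped by role), with 95% intervals from limma. Filled points passed an adjusted p of 0.05: 44 for CD11b+ B cells minus PMs, 41 for CD11b- B cells minus PMs, and 0 for CD11b+ minus CD11b- B cells, where most intervals include 0.

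The third comparison, the main one of the study, set CD11b+ against CD11b- B cells. No member passed. By limma 0 of 46 were called higher and 0 lower (adjusted p from 0.152 to 0.9996), against 0.0689% of all 21778 genes tested called higher and 0.0% called lower. Before adjustment, p was under 0.05 for 3 members higher in CD11b+ B cells (*Tk1*, *Orc6* and *Gins2*) and for 1 lower (*Pold1*), against 4.65% and 3.04% of all genes tested. The libraries did not overlap for 3 members higher in CD11b+ B cells (the same 3) and for 2 lower (*Pold1* and *Rfc1*), against 8.63% and 6.32% of all genes tested. The fitted difference was above 0 for 35 of 46 members, against 55.1% of all genes tested, with a median of 0.23 against 0.03. That count was 22 without CD11b- replicate 3, 42 without CD11b+ replicate 3, 30 and 27 without CD11b+ replicates 1 and 2, and 40 and 36 without CD11b- replicates 1 and 2. The median depended on the libraries numbered 3: it was -0.01 without CD11b- replicate 3, 0.49 without CD11b+ replicate 3 and 0.25 without both, when 40 members were above 0, 10 reached an unadjusted p under 0.05 and 0 were called. The share of all genes at that p without both is not given here. The median of the members was 0.10 without CD11b+ replicate 1 or 2 and 0.45 without CD11b- replicate 1. On whole reads recovered from the FPKM, edgeR called 0 members (0.269% of all genes higher) and DESeq2 called 1 higher (1.45% of all genes), *Tk1*.

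Nucleotide supply had the largest median of the 9 roles between the B cell groups, 0.84, and all 5 of its genes were fitted above 0, with 1 at an unadjusted p under 0.05. That median was 0.34 without CD11b- replicate 3, 0.90 without CD11b+ replicate 3 and 0.74 without both. *Tk1* (ENSMUSG00000025574), the cytosolic thymidine kinase of S phase, was at 10.2, 9.196 and 8.31 FPKM in CD11b- and at 17.3, 18.7 and 15.9 in CD11b+ libraries. The groups did not overlap, and the libraries numbered 3 were lowest by less than for *Rrm2* or *Tyms*. The difference was 0.84 ± 0.15 (95% interval 0.49 to 1.19, adjusted p = 0.152, limma), higher in 3 of 3 CD11b+ libraries, and the adjusted p by DESeq2 was 0.00029. *Tyms*, thymidylate synthase, was at 11.5, 8.64 and 2.55 FPKM in CD11b- and at 16.9, 17.9 and 8.54 in CD11b+ libraries (0.97 ± 0.47, adjusted p = 0.679, limma), with CD11b+ replicate 3 below CD11b- replicates 1 and 2. *Rrm2* differed by 0.86 ± 0.62 (adjusted p = 0.727, limma), with CD11b+ replicate 3 at 36.8 FPKM below CD11b- replicates 1 and 2 at 83.9 and 58.5. *Dut* was at 40.1, 34.1 and 17.8 FPKM in CD11b- and at 48.9, 56.8 and 37.5 in CD11b+ libraries (0.68 ± 0.30, adjusted p = 0.652, limma). *Rrm1* differed least of the 5 (0.13 ± 0.46, interval -0.94 to 1.195). Without CD11b- replicate 3 the differences of *Rrm2*, *Tyms* and *Dut* fell to 0.23, 0.43 and 0.34, that of *Rrm1* to -0.25 and that of *Tk1* to 0.77. Without CD11b+ replicate 3 *Rrm2* was at 1.43, *Tyms* at 1.29, *Dut* at 0.84 and *Tk1* at 0.90. With neither library the values were 0.79, 0.74, 0.50 and 0.83, and limma called none of the 5 in any of these fits. Granulocyte precursor, erythroid, monocyte and macrophage, and plasma cell marker sums were also higher in CD11b+ libraries, and their part in these values was not tested.

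**Figure D3:**
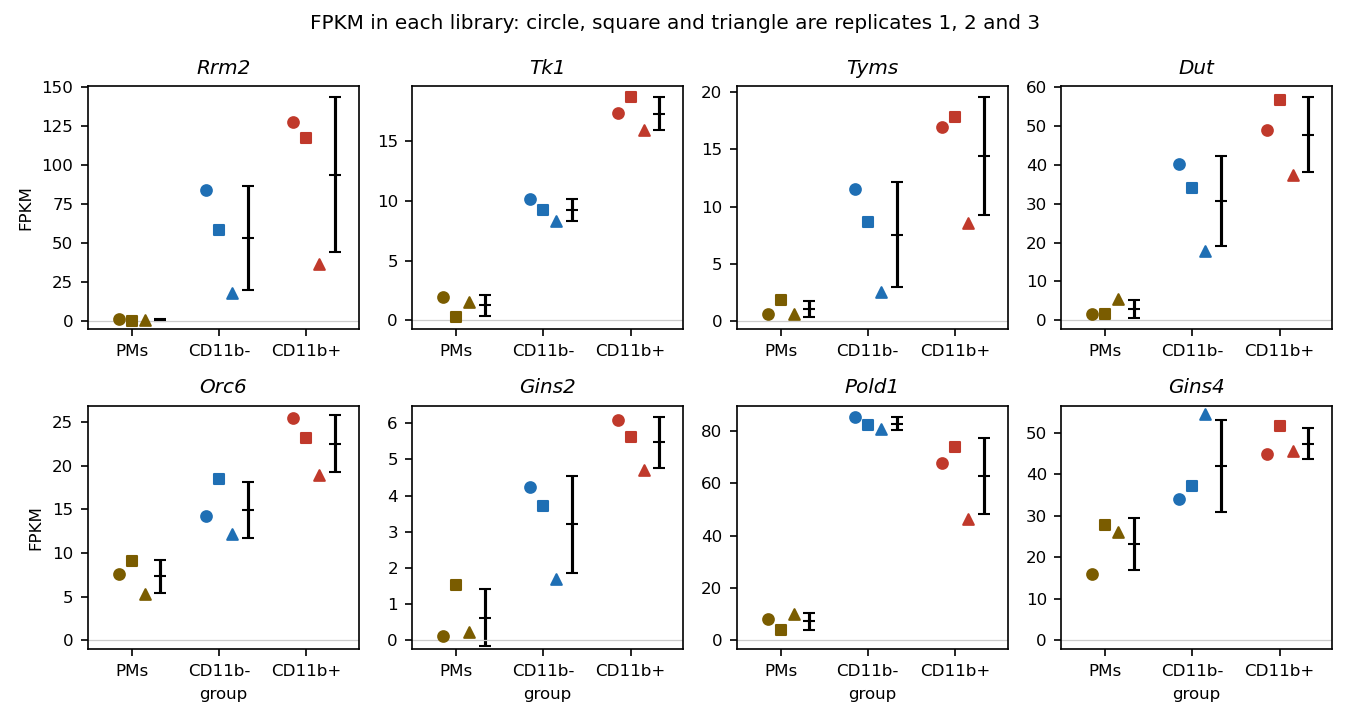
FPKM of 8 members in each library of PMs, CD11b- and CD11b+ B cells, with the mean and SD (n = 3) drawn to the right of each group. *Tk1*, *Orc6* and *Gins2* have every CD11b+ library above every CD11b- library, *Pold1* has the reverse, and *Gins4* is highest in CD11b- replicate 3.

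Helicase activation (6 of 6) and chromatin and fork maintenance (6 of 6) were also fitted above 0 throughout, with medians of 0.42 and 0.23. Without CD11b- replicate 3 these were 5 of 6 and 3 of 6, with medians of 0.11 and 0.01. Without CD11b+ replicate 3 both were 6 of 6, with medians of 0.68 and 0.67. With both libraries numbered 3 left out both were again 6 of 6, with medians of 0.39 and 0.31. *Gins2* (ENSMUSG00000031821), a GINS subunit, was at 4.23, 3.71 and 1.68 FPKM in CD11b- and at 6.08, 5.61 and 4.72 in CD11b+ libraries (0.67 ± 0.29, adjusted p = 0.646, limma). With single libraries left out this difference ran from 0.38 (without CD11b- replicate 3) to 0.86 (without CD11b- replicate 1). The value of *Gins2* is uncertain because 67.3% of its exon bases are shared with *Gse1* on the opposite strand and the use of strand in counting was not given. *Gins3* had the smallest difference of that role (0.18 ± 0.27). *Clspn* (0.56 ± 0.39) and *Chaf1b*, a subunit of the chromatin assembly factor (0.19 ± 0.34), were the ends of the fork maintenance role. *Clspn* was at 0.17 without CD11b- replicate 3 and at 0.91 without CD11b- replicate 1. *Orc6* (ENSMUSG00000031697), the smallest origin recognition subunit, was at 14.2, 18.5 and 12.2 FPKM in CD11b- and at 25.5, 23.2 and 18.9 in CD11b+ libraries (0.57 ± 0.19, adjusted p = 0.552, limma), while *Cdt1* of the same role was fitted below 0 (-0.10 ± 0.15).

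The MCM2-7 helicase had a median of -0.07, with 2 of 6 genes fitted above 0 and 0 at an unadjusted p under 0.05. That direction rested on single libraries: the median was 0.43 without CD11b+ replicate 3 (6 of 6 above 0), 0.19 without CD11b- replicate 1, 0.0063 without CD11b- replicate 2 and -0.32 without CD11b- replicate 3 (0 of 6), and 0.21 without both libraries numbered 3. *Mcm5* was the farthest from 0 (0.25 ± 0.40, interval -0.68 to 1.18) and *Mcm6* the nearest (-0.04 ± 0.44, interval -1.06 to 0.98). Intervals of this width do not exclude a change of 1.5-fold either way. *Pold1* (ENSMUSG00000038644) was the member with the lowest fitted difference (-0.42 ± 0.18, interval -0.85 to -0.0017, adjusted p = 0.648, limma). With single libraries left out this difference ran from -0.55 (without CD11b+ replicate 2) to -0.22 (without CD11b+ replicate 3), and it was -0.24 without both libraries numbered 3. *Pold1* was at 85.6, 82.4 and 80.8 FPKM in CD11b- and at 67.9, 74.0 and 46.4 in CD11b+ libraries, which did not overlap. *Pole2*, a polymerase epsilon subunit, had the largest size in that role (0.55 ± 0.30), and *Pole* the smallest (0.01 ± 0.41). *Rfc1*, the large clamp loader subunit, was at 27.8, 26.5 and 26.5 FPKM in CD11b- and at 23.4, 25.997 and 21.3 in CD11b+ libraries (-0.19 ± 0.13, adjusted p = 0.727, limma). *Rfc4* (0.43 ± 0.29) and *Rfc5* (-0.0018 ± 0.31), *Rpa3* (0.34 ± 0.26) and *Rpa1* (-0.05 ± 0.27), and *Lig1* (0.44 ± 0.40) and *Fen1* (-0.06 ± 0.33) bounded their roles by size of the difference.

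The members also varied together among the libraries of each B cell group. The library numbered 3 was the lowest of its group for 45 of 46 members in CD11b- and 44 of 46 in CD11b+ B cells, whereas 39.2% and 43.1% of all genes at a mean of at least 1 FPKM were lowest there. The median ratio of replicate 3 to the mean of the other replicates was 0.551 in CD11b- (0.246 to 1.53) and 0.574 in CD11b+ B cells (0.275 to 1.07). By role, the lowest ratio of summed FPKM was that of nucleotide supply in CD11b- (0.373) and of the helicase in CD11b+ B cells (0.385). *Gins4* was the exception in CD11b- B cells, at 34.0, 37.3 and 54.6 FPKM, and in CD11b+ B cells the exceptions were *Cdt1* (19.6, 25.1 and 23.9) and *Gins4* (45, 51.7 and 45.7). In PMs no library held the lowest value for more than 18 members. These are the libraries with the B cell precursor markers, and the part of precursors in this pattern was not tested.

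**Figure D4:**
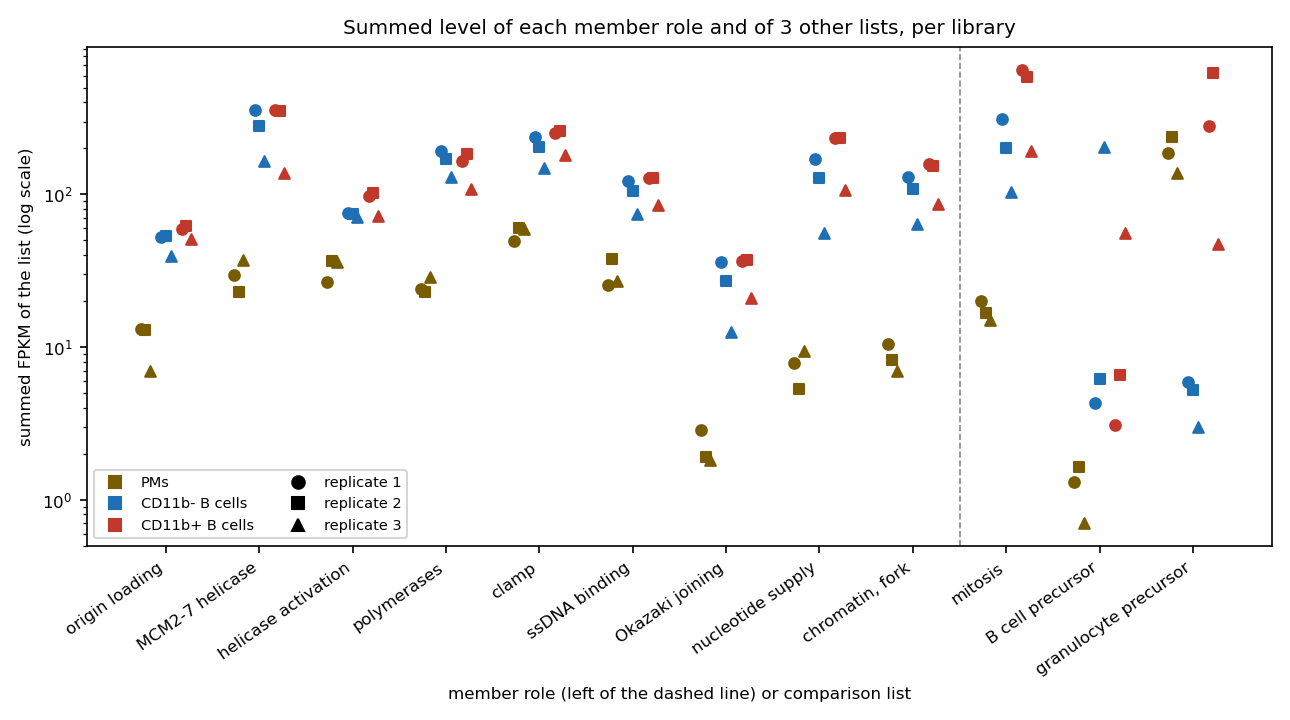
Summed FPKM (log scale) of each member role, and of the mitosis, B cell precursor and granulocyte precursor lists to the right of the dashed line, in each library. Replicate 3 (triangles) is the lowest B cell library of its group in every member role and in mitosis, and the highest in the precursor list (204 and 56.1).

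Related lists of genes were read from the same fits, where 21.5% of all genes tested were called higher and 8.78% lower than in PMs for CD11b+ B cells, and 25.8% and 11.0% for CD11b- B cells. Of 33 tested genes for other replication factors, 21 were above PMs past the threshold in the CD11b+ sort, against 25 in the CD11b- sort, and 0 were called lower. The largest differences were those of *Asf1b*, a histone chaperone (4.08 and 3.66), *Cdc7*, the kinase that fires origins (3.84 and 3.76), and *Wdhd1* (3.06 and 2.98). Of 30 genes for other nucleotide metabolism, 21 and 20 were called higher. *Shmt1* and *Shmt2* of folate metabolism and *Dck*, deoxycytidine kinase, led in both (2.61 to 3.21), and 1 gene was called lower in both, *Impdh1*, of guanine nucleotide synthesis (-1.17 and -1.07). Of the repair and checkpoint list, 20 and 21 of 25 were called higher and 0 lower. *Msh6*, of mismatch repair, and *Rad51ap1* were among the leading genes for CD11b+ B cells (2.75 and 2.74), and *Msh6*, *Fanca* and *Rad9a* led for CD11b- B cells (2.90, 2.71 and 2.38). Of 20 mitosis genes 19 and 20 were called higher, led by *Ccnb2*, *Cdc20* and *Top2a* for CD11b+ (4.61, 4.42 and 4.38) and by *Nusap1*, *Cdc20* and *Top2a* for CD11b- B cells (3.47, 3.42 and 3.27).

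Among E2F and S phase regulators 17 of 31 tested genes were called higher and 1 lower than in PMs for CD11b+ B cells (21.5% and 8.78% of all genes tested), and 17 of 30 higher and 1 lower for CD11b- B cells (25.8% and 11.0%). *E2f2* had the largest difference (5.02 ± 0.24, adjusted p = 4.04e-06, limma, for CD11b+ and 5.41 ± 0.21, adjusted p = 1.64e-06, for CD11b- B cells). It was at 0.102 to 0.352 FPKM in PMs and at 32.0 to 57.9 in B cells, and it was not lowest in the libraries numbered 3. *Cdkn1a*, the inhibitor p21, was the gene called lower (-3.25 and -3.64). *E2f1* was at 6.14, 3.23 and 5.34 FPKM in PMs, 11.7, 10.9 and 1.71 in CD11b- and 3.98, 8.45 and 5.76 in CD11b+ libraries, so the 3 groups overlapped. *Ccne1*, the cyclin of S phase entry, was at 0.313, 0.0257 and 1.43 FPKM in PMs, 22.5, 14.3 and 7.82 in CD11b- and 33.5, 29.7 and 17.0 in CD11b+ libraries. *Ccna2* (3.57) for CD11b+ and *Ccnd2* (3.58) for CD11b- B cells completed the leading genes.

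Between CD11b+ and CD11b- B cells limma called 0 of the 139 tested genes of these 5 lists, with 14 higher and 4 lower at an unadjusted p under 0.05, against 4.65% and 3.04% of all genes tested (0.0689% called higher). edgeR also called 0, and DESeq2 called *Ccnb2*, *Cdk1*, *Cenpe* and *Mki67* higher and *Rrm2b* lower, where it called 1.45% of all genes higher and 0.282% lower. Mitosis had the largest median of them, 1.12, with 20 of 20 genes fitted above 0 (55.1% of all genes tested) and 9 at an unadjusted p under 0.05. The granulocyte precursor markers (46.9 to 622 FPKM in CD11b+ against 3.01 to 5.93 in CD11b- libraries) and the erythroid markers (39.5 to 50.1 against 2.22 to 25.7) moved the same way. The part of cells carrying these markers in the mitosis values was not tested. The median of the mitosis list was 0.72 without CD11b- replicate 3, 1.58 without CD11b+ replicate 3 and 1.30 without both. *Top2a* was at 28.3, 17.5 and 6.38 FPKM in CD11b- and at 49.7, 41.3 and 18.0 in CD11b+ libraries, and *Mki67*, the proliferation marker, at 16.3, 11.4 and 4.25 and at 33.4, 37.9 and 17.6. *Mki67* libraries did not overlap, while CD11b+ replicate 3 lay within the CD11b- range for *Top2a*. *Ube2c* (1.68 ± 0.57) and *Kif20a* (0.38 ± 0.82) were the ends of that list. For the other lists the highest and lowest differences were those of *Gmnn*, the Cdt1 inhibitor geminin (0.89 ± 0.25), and *Orc5* (-0.28 ± 0.24), *Ccna2* (1.04 ± 0.59) and *Tfdp2* (-0.59 ± 0.27), and *Rad51ap1* (1.004 ± 0.50) and *Rad9a* (-0.40 ± 0.17). In other nucleotide metabolism the lowest was that of *Rrm2b*, the p53-induced reductase subunit (-0.85 ± 0.22). *Rrm2b* was at 6.59, 5.46 and 9.10 FPKM in CD11b- and at 3.34, 3.16 and 3.67 in CD11b+ libraries, opposite in sign to *Rrm2*.

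Differences were also read by promoter window. Against PMs the 15 members with an E2F site had a median of 2.97 for CD11b+ B cells (1.26 to 4.50, 14 called) and the 23 without one a median of 2.57 (1.11 to 5.65, 23 called), where 21.5% of all genes tested were called higher. For CD11b- B cells the medians were 2.79 (13 called) and 2.22 (21 called), where 25.8% of all genes tested were called higher. The 8 members with no window had medians of 2.12 and 1.75 (7 called in each). The medians with and without a site between the B cell groups were 0.24 and 0.29 (0 called in either), and 0.19 with no window.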

How the data were processed

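Full-length cDNA libraries without molecular identifiers were sequenced for 9 samples of 3 groups, assigned from the sample titles. Per the submitters' notes, the authors trimmed reads (Trim Galore 0.4.4, Trimmomatic 0.36, cutadapt 1.16), mapped them with STAR 2.7.2b to GRCm38, counted them with featureCounts 1.6.1 and used DESeq2 1.20.0. GRCm39 is listed as well, and the use of strand was not given. The authors deposited FPKM for 55322 genes, and a second table of 11063 genes with a signal of counts divided by size factors and a cluster number, whose clusters were not used here. Reads recovered from the FPKM were whole (within 0.05) for 100% of values. They gave the depth, 18014658 to 35251215 reads, and served the edgeR and DESeq2 fits.

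Each pair of groups was fitted with limma 3.58.1 (lmFit, eBayes with trend, R 4.3.3) on log2(FPKM + 1), leaving out genes whose mean FPKM was under 0.05 and adjusting p over all the rest (Benjamini-Hochberg). edgeR 4.0.16 and DESeq2 1.42.0 were run as alternatives. The members, roles and lists were chosen with earlier results of these data known. Members named with values are mainly, per role, those that differed most and least in a comparison, with those whose libraries did not overlap. Some others, such as *Dut*, are named too. Of each related list, up to 3 genes called in each direction are named, or the largest and smallest difference where none was called. *E2f1*, *Ccne1*, *Mki67* and *Top2a* are also given by library. 15 members share exon bases with another gene, most for *Fen1*, *Gins2* (67.3%) and *Chaf1a* (52.5%). Replicate numbers in the titles entered only alternative fits. Values of some listed genes are not reported here.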

Additional observations from a re-analysis of the deposited data

How the results depend on the processing

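Against PMs all 46 members kept their sign under all 16 alternatives in both comparisons, and 28 (CD11b+) and 25 (CD11b-) members were called in all 16. The share of all genes called in all 16 is not given here. Without a filter on FPKM 26 members were called for CD11b- B cells (30 for CD11b+), where 3375 (2864 for CD11b+) of all 55322 genes were called higher. The members' median was 3.29 and 3.0 for CD11b+ and CD11b- B cells with a pseudocount of 0.1, 2.0 and 1.82 with median-ratio scaling and 2.08 and 1.83 with quantile normalization, and from 1.90 to 2.55 for CD11b- B cells with single libraries left out. All genes called higher were 2864 and 3375 without a filter, 2918 and 3401 with median-ratio scaling, 2706 and 3415 with quantile normalization, 2850 and 3200 by edgeR, and 3152 to 4919 for CD11b+ with single libraries left out (fewest without CD11b+ replicate 2). DESeq2 called 3418 and 4030 genes lower (1940 and 2306 by limma).

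Between the B cell groups 21 of 46 members kept their sign under all 20 alternatives and 42 were called in none. DESeq2 called 1 member higher. The replicate block by title number left 0 members called (12 at an unadjusted p under 0.05). The share of all genes at that p in this fit is not given here. With that replicate block edgeR called 0 members, with 50 genes higher and 1 lower. DESeq2 with that block called 4 members, *Rrm2*, *Tyms*, *Tk1* and *Dut*, with 458 genes higher and 151 lower of 22684 tested. Both of these blocked fits on reads were added after seeing the data. The replicate block by description number left 0 genes higher. Deviations from the group means of CD11b+ and CD11b- libraries with the same title number correlated at 0.287, -0.017 and 0.209 over 11986 genes, so the title numbers were not taken to pair the libraries. The pairs numbered 1 and 3, with 0.287 and 0.209, also share a number in the descriptions and the pair numbered 2 does not; with 2 such pairs pairing by description could not be settled. CD11b+ and CD11b- replicates 2 did not correlate best with each other. Genes called higher (15 by limma) were 34 with a pseudocount of 0.1 (3 lower), 2 without a filter (4 lower), 31 with a minimum mean FPKM of 1, 31 with 9 libraries in one fit (5 lower), 9 with quantile normalization, 42 by edgeR, 328 by DESeq2 (64 lower), 29 without both libraries numbered 3 (added after seeing the data), and 3 to 40 with single libraries left out.

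In all, 25 of the 46 members changed sign under at least 1 alternative, with fitted differences of up to 0.58 in size. Among the larger, *Cdc45* was -0.0095, *Prim1* -0.069 and *Cdc6* -0.021 without CD11b- replicate 3. *Pole* was -0.0054 with median-ratio scaling, -0.050 with quantile normalization, -0.078 by edgeR, -0.083 by DESeq2, -0.034 with the replicate block by description number, -0.129 without both libraries numbered 3 and -0.402 to 0.284 with single libraries left out. *Mcm6* was 0.033 by edgeR, 0.028 by DESeq2, 0.185 without both and -0.329 to 0.473 with single libraries left out. *Rfc5* was 0.022 with quantile normalization and 0.083 without both. Without both, *Rpa1* was 0.127 and *Fen1* 0.201. With the block by description number *Rrm1* was -0.039, *Chaf1b* -0.0035 and *Kif20a* -0.286. With single libraries left out the ranges were *Cdt1* -0.16 to 0.0067, *Mcm5* -0.13 to 0.63, *Gins3* -0.034 to 0.43, *Rfc5* -0.23 to 0.31, *Rpa1* -0.23 to 0.25, *Lig1* -0.015 to 0.78, *Fen1* -0.26 to 0.28, *Rrm1* -0.25 to 0.61, *Chaf1b* -0.028 to 0.51 and *Kif20a* -0.20 to 1.48. The causes were not tested. Depth limits the PM side of low members, such as *Fen1* with 7 reads over 3 PM libraries.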
